A study of Arabidopsis thaliana with 24 samples.

Results

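FEZ (AT1G26870), SMB (AT1G79580), BRN2 (AT4G10350) and NAC094 (AT5G39820) are 4 NAC transcription factor genes of Arabidopsis thaliana, and CEL5 (AT1G22880) encodes an endo-beta-1,4-glucanase, an enzyme that cuts cellulose-type glucans of the cell wall. They were taken as the rows of the deposited gene tables that carry these gene identifiers, which gave 5 of 32619 genes, and each was followed over 3 zones of 3 reporter lines. RNA was sequenced from protoplasts of Col-0 roots that had been sorted by how brightly they carried a green fluorescent protein. Every line was in the Col-0 background, and the labels name no other allele, treatment or age. Root meristem is the labelled tissue of the PUB25 and SPT lines, which have 3 libraries for each zone, and meristematic xylem that of the TMO5 line, which has 2. The zones are named Proximal, Medial and Distal, and the labels give neither the fluorescence range of a zone nor the promoter that drives the protein, so the names are used as labels only. All sorted cells passed through protoplasting, so no zone is free of that treatment.

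The root cap is a small organ around the root tip that is renewed from stem cells and sheds its outermost cells. FEZ is known to promote the divisions that supply new cap layers, SMB acts against those divisions and starts differentiation, and BRN1 and BRN2 act with SMB in the maturation and detachment of cap cells. CEL5 is known from the root cap, where it takes part in the shedding of the outer layers. NAC094 encodes a further member of the NAC family.

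The deposited values are the authors' FPKM (fragments scaled to transcript length and to library size), with 1 value for each gene, line and zone. There are no values of single libraries, so no error, n or interval can be given for a level, and library depth is unknown. A fold below is the log2 ratio of FPKM + 1 between 2 zones, computed here. Rose and fell are used only where q (the adjusted p-value) was less than 0.05 by the authors' deposited table. Its smallest value was 0.000407 in the PUB25 line, 0.000359 in the SPT line and 0.00777 in the TMO5 line, so many genes share it. The 3 lines are given in separate tables, and whether they were normalized together is not given in the sources used here. Levels of different lines are set side by side without a test. In sorted bulk cells, fewer cells of a type and less RNA in each cell cannot be told apart.

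In the PUB25 and SPT lines FEZ and NAC094 were high in Proximal cells and fell at each step to Distal. BRN2 rose from Proximal to Medial in both lines, and from Medial to Distal in the SPT line only. SMB differed by at most 1.43 on the log2 scale between zones of either line. CEL5 peaked in Medial cells of the PUB25 line and in Distal cells of the SPT line. In the TMO5 line FEZ, SMB and NAC094 were under 1 FPKM in every zone, and no member was called different between zones.

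**Figure D1:**
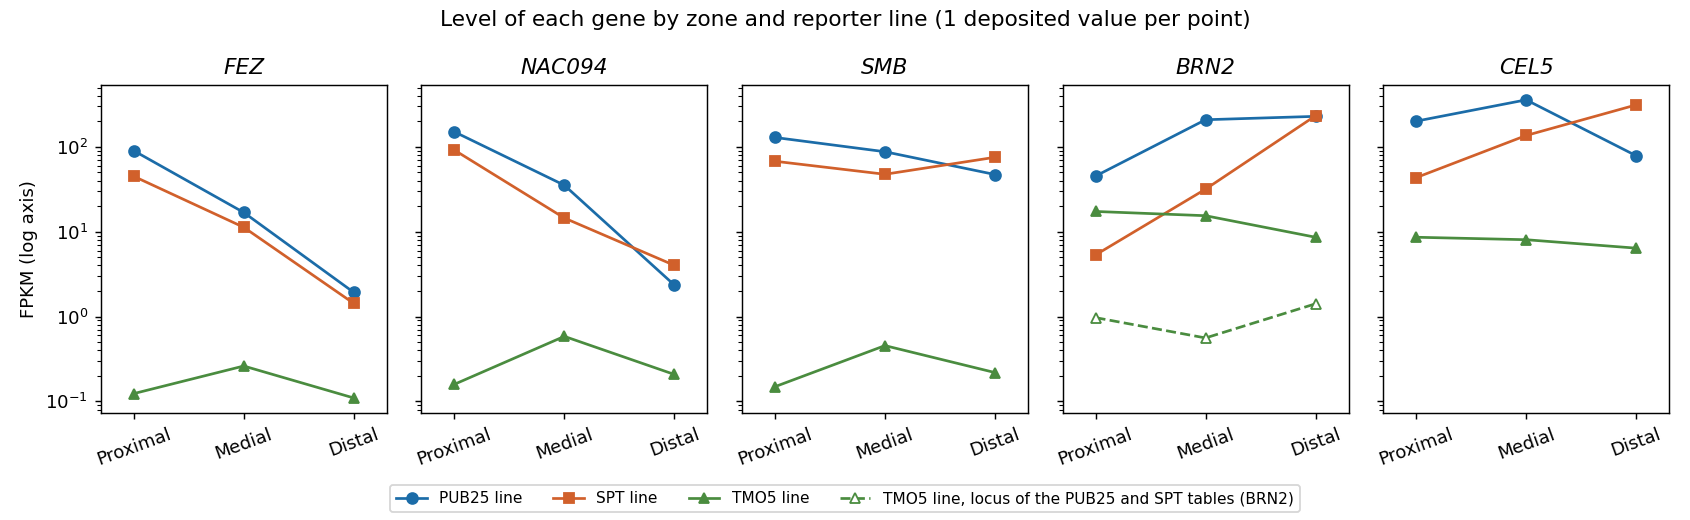
FPKM of each gene on a log axis in the Proximal, Medial and Distal zones of the PUB25 (circles), SPT (squares) and TMO5 (triangles) lines, with 1 deposited value per point and lines joining the zones of a reporter line. FEZ and NAC094 decline to 1.93 and 2.35 FPKM in Distal cells of the PUB25 line, while BRN2 reaches 229 FPKM there, and open triangles give the second BRN2 locus of the TMO5 line.

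FEZ lies on chromosome 1 at chr1:9312856-9314983 of TAIR10, with 3 exons on the plus strand of the RefSeq annotation. In the PUB25 line FEZ stood at 90.3 FPKM in Proximal, 16.9 in Medial and 1.93 in Distal cells. SPT levels were 45.1, 11.3 and 1.43 FPKM in the same order. Both lines therefore had the same zone order, and the PUB25 level was the higher one in each zone. FEZ fell from Proximal to Distal by 4.96 on the log2 scale in the PUB25 line and by 4.24 in the SPT line. These falls had q = 0.000407 and q = 0.000359 by the authors' deposited table. Each single step was also a fall. From Proximal to Medial the log2 fold was -2.35 in the PUB25 line and -1.91 in the SPT line, and from Medial to Distal it was -2.61 and -2.34. Among all genes ranked by FPKM, FEZ went from place 1149 in Proximal to place 14800 in Distal cells of the PUB25 line, and from 2102 to 15598 in the SPT line.

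NAC094 lies on chromosome 5 at chr5:15939300-15940491, with 3 exons on the minus strand. Its PUB25 levels were 151 FPKM in Proximal, 35.3 in Medial and 2.35 in Distal cells. The SPT line gave 91.9, 14.5 and 4.02 FPKM. NAC094 thus followed the zone order of FEZ in both lines. The fall from Proximal to Distal was the largest change of any member in the PUB25 line, with a log2 fold of -5.50, and in the SPT line the log2 fold was -4.21. The steps were unequal. From Proximal to Medial NAC094 fell by 2.06 in the PUB25 line and by 2.58 in the SPT line, and from Medial to Distal by 3.44 and 1.63. By the authors' deposited table q was 0.000407 for each PUB25 step, 0.000359 for the first SPT step and 0.00147 for the second. NAC094 stood above FEZ in every zone of both lines. Its FPKM was 1.67, 2.09 and 1.22 times that of FEZ in Proximal, Medial and Distal cells of the PUB25 line, and 2.04, 1.29 and 2.81 times in the SPT line.

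The sequences around the start of FEZ, NAC094 and BRN2 are shown, from 250 bases before to 50 bases after the RefSeq gene start (TAIR10.1), written 5' to 3' on the strand of the gene. Capitals mark CGTG on either strand, the core letters bound by many NAC factors. The windows are chr1:9312686-9312985 on the plus strand for FEZ, chr5:15940541-15940840 on the minus strand for NAC094 and chr4:6416912-6417211 on the minus strand for BRN2.
FEZ: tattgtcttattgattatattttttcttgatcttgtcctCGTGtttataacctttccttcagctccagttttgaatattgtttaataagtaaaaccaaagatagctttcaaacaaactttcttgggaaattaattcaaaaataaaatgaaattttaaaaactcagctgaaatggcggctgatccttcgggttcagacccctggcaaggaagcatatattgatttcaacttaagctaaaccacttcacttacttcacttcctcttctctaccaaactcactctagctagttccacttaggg
NAC094: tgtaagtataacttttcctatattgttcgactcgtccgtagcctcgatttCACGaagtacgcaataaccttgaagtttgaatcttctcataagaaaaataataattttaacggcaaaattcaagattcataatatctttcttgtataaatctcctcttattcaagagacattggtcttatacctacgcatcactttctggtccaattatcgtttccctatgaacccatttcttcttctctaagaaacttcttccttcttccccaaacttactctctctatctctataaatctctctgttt
BRN2: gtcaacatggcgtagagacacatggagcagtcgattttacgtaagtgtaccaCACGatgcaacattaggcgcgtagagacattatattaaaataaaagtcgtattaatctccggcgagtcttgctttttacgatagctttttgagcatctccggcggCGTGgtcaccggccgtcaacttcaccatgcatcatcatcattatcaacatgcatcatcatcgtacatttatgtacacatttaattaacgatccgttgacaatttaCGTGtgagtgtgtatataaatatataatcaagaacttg
FEZ and NAC094 each held CGTG once, with its first base at position -211 and -200 from the start, and BRN2 held it 3 times, at positions -198, -93 and 12. The SMB and CEL5 windows held none. Of 27443 gene starts in the annotation 52.7% held CGTG at least once and 10.4% held it 3 or more times. A longer form with a spacer, TTNCGT on either strand, can overlap the first motif and was found 3 times in BRN2, 2 times in CEL5, once in NAC094 and not in FEZ or SMB. Of the 3 matches in BRN2, 2 overlap on opposite strands of a shared site. Such pairs were counted as 2 in all windows. It occurred in 39.9% of all windows, and 2.32% held it 3 or more times. These matches describe letters only and were not tied to binding of any factor.

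FEZ and NAC094, which had close patterns, were also each other's closest gene in coding sequence among the NAC genes compared. They had 69.6% identical bases over the 984 bases aligned without gaps. With the other NAC genes FEZ had 59.6% to 66.8% and NAC094 60.6% to 66.6%. The longest identical run of FEZ and NAC094 was 17 bases, and of 1208 words of 50 bases in FEZ 0 occurred in NAC094. SMB and BRN2 had 68.8% identical bases, and FEZ had 61.0% with SMB and 63.3% with BRN2. BRN2 was closest to BRN1, with 82.3%.

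SMB lies on chromosome 1 at chr1:29940807-29943615, on the minus strand, and RefSeq gives it 5 transcripts with 3 or 4 exons. Its levels in the PUB25 line were 129 FPKM in Proximal, 87.8 in Medial and 47.3 in Distal cells. SMB fell at both steps there, with log2 folds of -0.55 and -0.88, and over the whole series of zones by 1.43. By the authors' deposited table these changes had q = 0.00142, 0.000407 and 0.000407. SPT levels were 67.8, 47.6 and 75.5 FPKM. The lowest SPT value was thus in Medial cells and the highest in Distal cells. SMB rose from Medial to Distal cells of the SPT line by 0.65 on the log2 scale (q = 0.0347 by the authors' deposited table). The log2 folds of -0.50 from Proximal to Medial and of 0.15 from Proximal to Distal were not called (q = 0.114 and 0.683 by the authors' deposited table). Under quantile normalization the latter fold was -0.25. SMB stayed above 47 FPKM in all 6 meristem zones, which placed it above 92.3% to 97.7% of all genes.

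BRN2 lies on chromosome 4 at chr4:6415119-6416875, and RefSeq places it on the minus strand with 2 transcripts of 2 or 3 exons. In the PUB25 line BRN2 stood at 45.3 FPKM in Proximal, 209 in Medial and 229 in Distal cells. The SPT line gave 5.33, 31.8 and 233 FPKM. Distal levels of these lines were close, while the Proximal level was lower in the SPT line. BRN2 rose from Proximal to Medial by 2.18 in the PUB25 line and by 2.37 in the SPT line on the log2 scale. From Medial to Distal it rose by 2.84 in the SPT line, whereas the PUB25 log2 fold of 0.13 was not called (q = 0.613 by the authors' deposited table). Over all zones the log2 rise was 2.31 in PUB25 cells and 5.21 in SPT cells (q = 0.000407 and 0.000359 by the authors' deposited table).

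The files give BRN2 as 2 loci with the same start and end, and each gene table carries 1 of them. The PUB25 and SPT tables carry a locus numbered in a block where 33 of 33 neighbouring genes are on the minus strand, and the TMO5 table carries one in a block where 35 of 35 are on the plus strand. The files state no strand, so this is an inference from the numbering, and how fragments were divided between the loci is not given in the sources used here. The plus-block locus stood at 119, 792 and 742 FPKM in the zones of the PUB25 line and at 13.5, 158 and 931 FPKM in the SPT line, in the order Proximal, Medial, Distal. It was 2.53 to 4.97 times the minus-block locus in these 6 zones. The direction from Proximal to Medial and from Proximal to Distal was upward for both loci, with log2 folds for the plus-block locus of 2.73 and 2.64 in the PUB25 line and of 3.46 and 6.01 in the SPT line. Between Medial and Distal cells of the PUB25 line the log2 folds of the loci, 0.13 and -0.09, differed in sign. The level of BRN2 beside other genes thus depends on the locus.

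**Figure D2:**
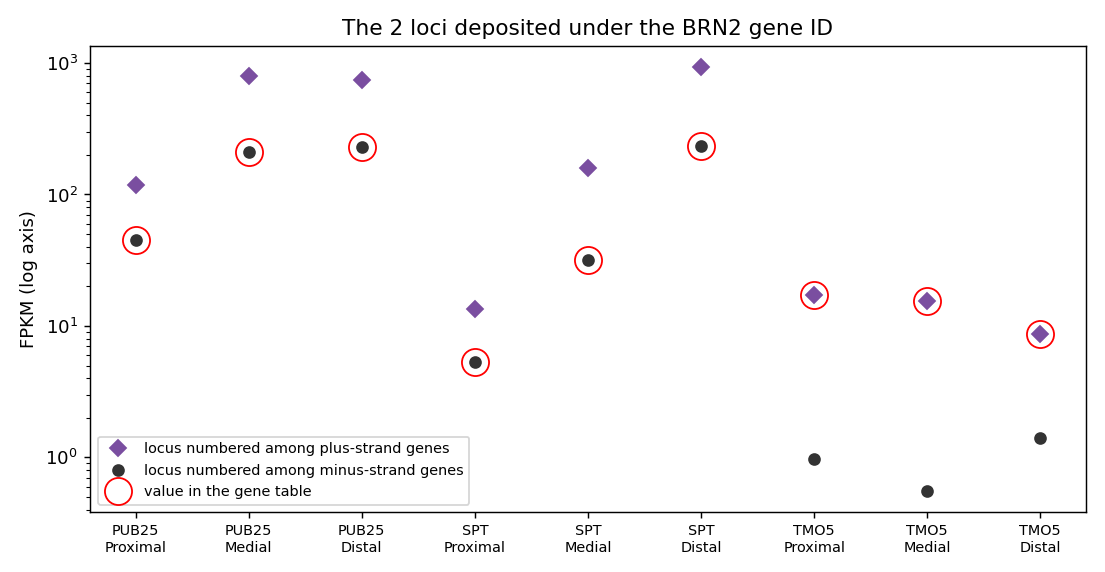
FPKM on a log axis of the pair of BRN2 loci in the Proximal, Medial and Distal zones of each line, with 1 deposited value per point and a ring around the value that the gene table carries. The plus-block locus lies above the minus-block locus in every zone, with 742 against 229 FPKM in Distal cells of the PUB25 line.

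BRN1, the closest relative of BRN2, shares 1 row with its neighbour AT1G33290, so it was not measured by itself. The joined row stood at 131, 306 and 224 FPKM in the PUB25 line and at 24.1, 88.1 and 273 FPKM in the SPT line. It rose from Proximal to Distal in both lines, by 0.77 and 3.45 on the log2 scale (q = 0.000407 and 0.000359 by the authors' deposited table). How much of this came from either gene cannot be read from the row.

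CEL5 lies on chromosome 1 at chr1:8095502-8097709, on the plus strand, with 3 RefSeq transcripts of 4 or 5 exons. Its PUB25 levels were 201 FPKM in Proximal, 359 in Medial and 78.8 in Distal cells. The SPT levels were 43.4, 136 and 313 FPKM. Distal cells thus held the lowest level of one line and the highest of the other. CEL5 rose from Proximal to Medial in both lines, with log2 folds of 0.83 and 1.63. From Medial to Distal it fell by 2.18 in the PUB25 line and rose by 1.19 in the SPT line. Over all zones CEL5 fell by 1.34 in the PUB25 line and rose by 2.82 in the SPT line. By the authors' deposited table q was 0.000407 for all PUB25 changes of CEL5 and 0.000359, 0.000949 and 0.000359 for the SPT changes in the same order. The difference between the lines was not tested, because the lines were tabulated separately. At its peaks CEL5 held place 273 in Medial cells of the PUB25 line and place 293 in Distal cells of the SPT line among all genes.

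CEL5 has a close relative, CEL3 (AT1G71380), and the pair is shown because fragments from near-identical copies can be assigned to either gene. Their coding sequences of 1455 bases had 81.7% identical bases. The longest identical run was 23 bases, and 0 of 1406 words of 50 bases were shared. Capitals mark the bases that differ. The stretch of 90 bases with the fewest differences, 5, covers coding bases 758 to 847 and reads:
CEL5: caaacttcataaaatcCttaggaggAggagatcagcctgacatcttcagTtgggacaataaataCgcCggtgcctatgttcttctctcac
CEL3: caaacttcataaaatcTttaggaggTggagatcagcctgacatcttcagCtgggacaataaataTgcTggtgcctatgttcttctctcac
The stretch of 90 bases with the most differences, 28, covers coding bases 1177 to 1266 and reads:
CEL5: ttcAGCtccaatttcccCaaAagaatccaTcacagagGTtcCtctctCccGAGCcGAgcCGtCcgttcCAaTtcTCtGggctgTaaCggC
CEL3: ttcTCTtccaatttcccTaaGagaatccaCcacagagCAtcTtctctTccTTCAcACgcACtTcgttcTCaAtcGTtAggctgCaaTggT
CEL3 had PUB25 levels of 0.593 FPKM in Proximal, 10.9 in Medial and 32.4 in Distal cells, where CEL5 was highest in Medial and lowest in Distal cells. CEL3 rose from Proximal to Distal by 4.39 there (q = 0.000407 by the authors' deposited table). In SPT roots CEL3 reached 2.32 FPKM in Distal cells, against 313 FPKM of CEL5. Its SPT log2 fold from Proximal to Distal of 1.53 was not called (q = 0.0765 by the authors' deposited table).

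Counted together, all 5 members were called between Proximal and Distal cells of the PUB25 line, 1 higher and 4 lower in Distal, where 36.8% of 16605 tested genes were called, 19.6% higher and 17.2% lower. Between Proximal and Distal cells of the SPT line 2 members were higher, 2 lower and 1 not called, against 47.8% of 17365 genes called, 24.7% higher and 23.1% lower. From Proximal to Medial, 2 members rose and 3 fell in the PUB25 line, with 14.7% of all genes higher and 11.7% lower (26.4% called). At that step 2 rose and 2 fell in the SPT line, with 17.4% of all genes higher and 17.3% lower (34.7% called). From Medial to Distal, 4 members fell and 1 was not called in the PUB25 line, with 11% of all genes higher and 11.4% lower (22.4% called). SPT cells had 3 members that rose and 2 that fell at that step, with 11.7% of all genes higher and 10.3% lower (22.1% called). The median log2 fold of all tested genes lay between -0.04 and 0.06 in these comparisons.

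**Figure D3:**
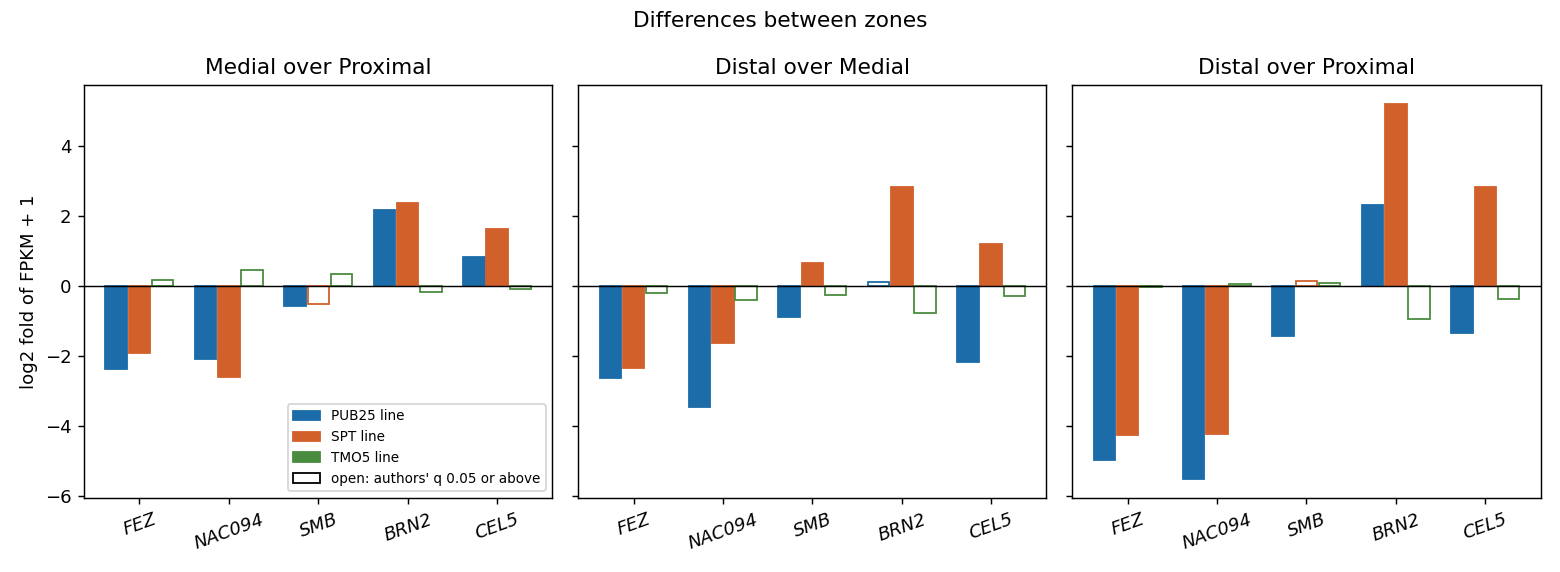
Log2 fold of FPKM + 1 of each gene between zones of the PUB25, SPT and TMO5 lines, as 1 bar per value, filled where q was under 0.05 by the authors' deposited table and open otherwise. FEZ and NAC094 lie below 0 in every comparison of the PUB25 and SPT lines, and CEL5 lies on opposite sides in Distal over Proximal at -1.34 and 2.82.

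Set against SMB of the same zone, the order of the factors changed over the zones. FPKM is per length, so these ratios compare levels between genes. FEZ was 0.698, 0.192 and 0.0407 times SMB in Proximal, Medial and Distal cells of the PUB25 line. The SPT ratios were 0.665, 0.237 and 0.0189. The Proximal ratios of the lines were close, and both declined at each step. NAC094 exceeded SMB in Proximal cells, at 1.17 times in the PUB25 line and 1.35 times in the SPT line, and stood at 0.0497 and 0.0532 times SMB in Distal cells. BRN2 went the other way, from 0.350 to 4.85 times SMB in the PUB25 line and from 0.0786 to 3.09 times in the SPT line. With the plus-block locus of BRN2 the ratio went from 0.916 to 15.7 and from 0.199 to 12.3. CEL5 was 1.56, 4.09 and 1.67 times SMB in the PUB25 line. The SPT line gave 0.641, 2.87 and 4.15 times. In Distal cells of the PUB25 line CEL5 was thus still above SMB although its level was lowest there. CEL5 went from 4.44 to 0.343 times BRN2 over the PUB25 zones and from 8.16 to 1.34 times over the SPT zones, by the locus these tables carry.

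**Figure D4:**
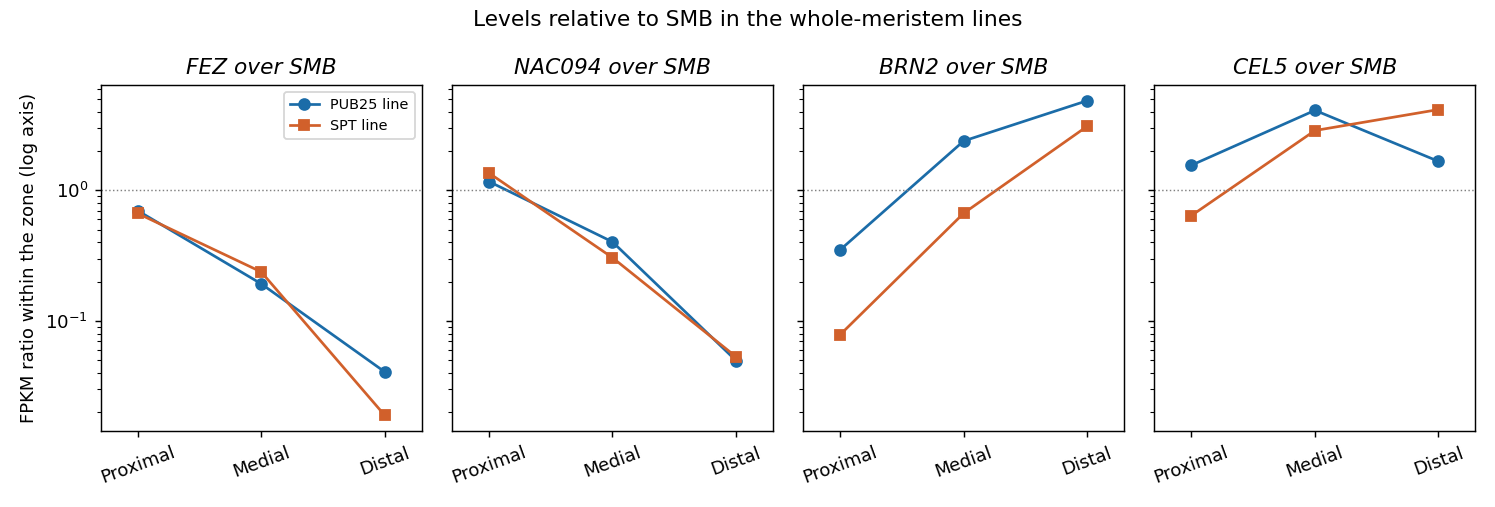
FPKM of FEZ, NAC094, BRN2 and CEL5 over that of SMB in the same zone, on a log axis, for the PUB25 and SPT lines with 1 value per point. FEZ goes from 0.698 to 0.0407 times SMB in the PUB25 line, while BRN2 goes from 0.350 to 4.85 times.

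In the TMO5 line, whose tissue is labelled meristematic xylem, 5 xylem marker genes summed to 981 FPKM in Proximal, 504 in Medial and 846 in Distal cells. From Proximal to Distal 1 of these rose, 2 fell and 2 were not called. The SPT Medial sum of the same markers, 770 FPKM, was above the TMO5 Medial sum. TMO5 epidermis markers summed to 155, 130 and 110 FPKM in the same zone order. Most of this came from CPC, a gene with several loci, at 146, 119 and 97.0 FPKM. Ground tissue markers summed to at most 10.8 FPKM and phloem markers to at most 0.372 FPKM in that line. FEZ stood at 0.123, 0.261 and 0.110 FPKM in the TMO5 line. SMB gave 0.149, 0.454 and 0.218 FPKM, and NAC094 gave 0.159, 0.584 and 0.208 FPKM. These 3 genes were therefore under the mean of 1 FPKM needed to enter the counts. CEL5 was measured at 8.61, 8.05 and 6.41 FPKM. BRN2 was listed at 17.3, 15.5 and 8.61 FPKM by the plus-block locus of that table and at 0.971, 0.559 and 1.41 FPKM by the minus-block locus that the other tables carry. The log2 fold of CEL5 from Proximal to Distal was -0.38 and that of BRN2 -0.93, or 0.29 by the minus-block locus. Neither was called (q = 0.998 for both by the authors' deposited table). Across the 3 comparisons 0 of the 2 members that passed the filter were called, which covered 15061 genes. From Proximal to Medial 0.212% of these were called, 0.0266% higher and 0.186% lower. From Medial to Distal 2.12% were called, 2.11% higher and 0.00664% lower. From Proximal to Distal 1.54% were called, 1.27% higher and 0.266% lower. The authors' deposited table is the only test at hand here, and unadjusted p-values are not part of it.

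Ordered over all 9 zones, FEZ was highest in Proximal cells of the PUB25 line, followed by Proximal cells of the SPT line and then both Medial, both Distal and all TMO5 zones. NAC094 had the same order except that its SPT Distal level, 4.02 FPKM, was above its PUB25 Distal level, 2.35 FPKM. The range of SMB was 129 FPKM, in PUB25 Proximal, down to 0.149 FPKM, in TMO5 Proximal, and its SPT Medial level of 47.6 FPKM and PUB25 Distal level of 47.3 FPKM were neighbours. CEL5 kept every TMO5 zone below every meristem zone, with 8.61 FPKM as the highest TMO5 level and 43.4 FPKM as the lowest meristem level. BRN2 was the one member whose TMO5 levels were not all lowest, since SPT Proximal stood at 5.33 FPKM, below the plus-block locus of every TMO5 zone. By the minus-block locus its TMO5 levels, at most 1.41 FPKM, were below all meristem zones. Within a line, neighbours in these orders that the authors' deposited table did not call were the PUB25 Medial and Distal levels of BRN2, the SPT Proximal level of SMB beside its Medial and its Distal level, and all TMO5 levels. Neighbours of different lines were not tested.

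The genes most like each member were found among 6308 genes that have a symbol and reach 5 FPKM in some zone. Likeness was the root mean square difference of log2(FPKM + 1) over the 9 zones after each line's mean was subtracted. It removes the mean level of a line but keeps the size of the changes, and the + 1 flattens changes at low FPKM. FEZ and NAC094 were each other's nearest gene, at 0.28 log2 units. The next genes for FEZ were AGP5, an arabinogalactan protein gene, at 0.42 and GBSS1, a granule-bound starch synthase gene, at 0.51. AGP5 stood at 35.6, 5.13 and 1.79 FPKM in the PUB25 line. For NAC094 they were RGF3, the gene of a peptide of the root meristem growth factor family, at 0.42 and the actin depolymerizing factor gene ADF9 at 0.46. By Pearson correlation in place of the difference, 0 of the 3 nearest genes were shared for FEZ and for NAC094, which then were not among each other's 3 nearest, and 1 of 3 was shared for SMB, BRN2 and CEL5. By the difference, the nearest genes of SMB were RPL, a homeodomain gene, at 0.10, CYSB, a cystatin gene, at 0.11 and the glucan phosphorylase gene PHS2 at 0.12. RPL was lower in level, at 9.55, 6.87 and 3.17 FPKM in the PUB25 line and 6.02, 3.12 and 5.23 FPKM in the SPT line.

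The nearest genes of BRN2 were MRN1, a marneral synthase gene, at 0.23 and the serine carboxypeptidase genes scpl25 at 0.30 and BRS1 at 0.33. MRN1 stood at 7.25, 53.0 and 46.1 FPKM in the PUB25 line and at 2.32, 17.6 and 130 FPKM in the SPT line. These neighbours rest on the TMO5 value of the plus-block locus. With the TMO5 value of the minus-block locus the nearest were THAS1, CYP72C1 and WRKY9, and 0 of the 3 were shared. CEL5 was nearest to GPAT2, a glycerol-3-phosphate acyltransferase gene, at 0.23, to CKX4, which encodes a cytokinin oxidase, at 0.27 and to the nitrate transporter gene NRT1.1 at 0.27. GPAT2, chosen for its likeness to CEL5 over these same zones, stood at 97.0, 141 and 54.7 FPKM in the PUB25 line. Its SPT levels were 8.02, 35.6 and 64.4 FPKM. Among the members themselves the nearest pair after FEZ and NAC094 was SMB and CEL5, at 0.77, followed by BRN2 and CEL5, at 1.05. CEL5 held only place 5059 among the genes nearest to SMB and place 748 among those nearest to BRN2. The widest pairs were BRN2 and NAC094, at 2.90, and FEZ and BRN2, at 2.83.

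Other genes of the root cap were read as counts over gene lists, from Proximal to Distal. Of the genes named below PLT1 and HSL2 also have several loci, of which each table carries 1. So do some counted genes of the cell death list and of the list of vessel and fibre NAC genes. Of 593 such names with 1 identifiable locus in each line, 274 had another locus in the TMO5 table than in the SPT table. Of 8 genes of root cap stem cells and columella, 6 entered the PUB25 count. Of these 5 fell, 0 rose and 1 was not called, with a median log2 fold of -1.14 against -0.01 for all genes, of which 17.2% fell and 19.6% rose. The SPT count had 7, of which 4 fell and 2 rose, with a median of -1.31 against 0.06 for all genes, of which 23.1% fell and 24.7% rose. PLT1 and PLT2, which encode AP2-type factors of the stem cell niche, fell with FEZ in both lines. PLT2 had 39.7 FPKM in Proximal and 11.7 in Distal PUB25 cells, and 31.5 and 3.20 FPKM in SPT cells. ARF16, an auxin response factor gene of columella differentiation, rose in SPT cells, with 49.9 and 133 FPKM, while PUB25 cells had 103 and 79.3 FPKM and no call (q = 0.0566 by the authors' deposited table). The gene of the receptor kinase ACR4, which limits columella stem cell divisions, fell in both lines, with 7.54 and 2.85 FPKM in PUB25 cells and 4.78 and 0.585 FPKM in SPT cells.

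Of 4 auxin transport genes of the columella, 3 fell and 1 rose in the PUB25 line, with a median log2 fold of -1.96, beside 17.2% of all genes lower and 19.6% higher. The SPT line had 1 that fell, 1 that rose and 2 not called, with a median of 0.09, and 1 of 4 each way is near the shares over all genes, 23.1% lower and 24.7% higher. The efflux carrier gene PIN4 fell in both lines, with Proximal and Distal levels of 227 and 32.5 FPKM in PUB25 and 194 and 15.3 FPKM in SPT cells. The influx carrier gene AUX1 rose in both, with 114 and 160 FPKM in PUB25 and 27.6 and 147 FPKM in SPT cells. PIN3 and PIN7 fell in the PUB25 line and were not called from Proximal to Distal in the SPT line, and this difference was not tested. Both rose from Proximal to Medial SPT cells, PIN3 from 14.9 to 28.1 FPKM and PIN7 from 12.7 to 22.6 FPKM. By the authors' deposited table q was 0.00147 and 0.0115 for these rises. Of 4 genes of cap maturation and shedding only IDL1 and HSL2, a peptide gene and a receptor kinase gene, had rows of their own. Falls were called for 17.2% of all PUB25 genes and 23.1% of all SPT genes. HSL2 fell in both lines, with 6.16 and 0.678 FPKM in PUB25 and 7.30 and 2.05 FPKM in SPT cells, and IDL1 was not called in either. BRN1 and RCPG, the others of this list, share rows with neighbours, and both rows rose in both lines. The row of RCPG and AT1G65560 had 6.89 and 453 FPKM in PUB25 and 5.30 and 10.3 FPKM in SPT cells. By the authors' deposited table q was 0.000407 and 0.0218. How much of this came from RCPG cannot be read from the row.

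Of 9 genes of root cap cell death, which follows maturation, 8 rose in the PUB25 line and 6 in the SPT line, and none fell. Those not called, 1 in PUB25 and 3 in SPT cells, were under 1 FPKM in Proximal and higher in Distal cells. Among them PASPA3 had 0.349 and 265 FPKM and RNS3 0.187 and 187 FPKM in SPT cells (q = 0.254 and 0.230 by the authors' deposited table). Of all genes 19.6% and 24.7% rose. The medians were 6.09 and 5.77 on the log2 scale, against -0.01 and 0.06 for all genes. NAC046 and ANAC087, NAC genes that promote this cell death, rose with BRN2. ANAC087 stood at 1.83, 106 and 208 FPKM in the PUB25 line and at 3.35, 23.2 and 107 FPKM in the SPT line. NAC046 gave 2.70, 28.8 and 64.8 FPKM in the PUB25 line and 3.38, 9.14 and 68.5 FPKM in the SPT line. Several genes of this list are also known from dying xylem vessels, so it does not mark the cap alone. In the TMO5 line 8 of the 9 entered the count and 1 rose, where 1.27% of all genes rose.

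Of 24 glycoside hydrolase 9 genes, the family of CEL5, 23 had rows of their own and 10 entered the counts of either meristem line. In the PUB25 line 4 rose, 2 fell and 4 were not called, with a median log2 fold of 0.28, beside 19.6% of all genes higher and 17.2% lower. Of these 10 genes 6 rose, 2 fell and 2 were not called in SPT cells, with a median of 1.41, beside 24.7% of all genes higher and 23.1% lower. The 2 of 10 that fell in each line are near these shares. KOR1, which encodes a membrane-bound glucanase of cellulose synthesis, rose in both lines, with 92.8 and 133 FPKM in PUB25 and 58.4 and 181 FPKM in SPT cells. GH9B6 fell in PUB25 cells, with 5.85 and 3.58 FPKM, and rose in SPT cells, with 0.257 and 2.59 FPKM, as CEL5 did. Of 10 NAC genes of vessels and fibres, relatives of the 4 factors, 6 entered in the PUB25 line and 5 of them rose, with a median of 1.32, beside 19.6% of all genes. The SPT count had 7, of which 1 rose and 6 were not called, a share below the 24.7% of all genes. Their median log2 fold was 1.31, against 0.06 for all genes. The log2 folds of the 6 not called ran from 0.002 to 2.45. The summed level of the 10 NAC genes was at most 43.1 FPKM in a meristem zone, against at least 137 FPKM in the TMO5 zones. Of these genes VND1 and VND5 have several loci, and their TMO5 values may come from another locus than their meristem values.

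**Figure D5:**
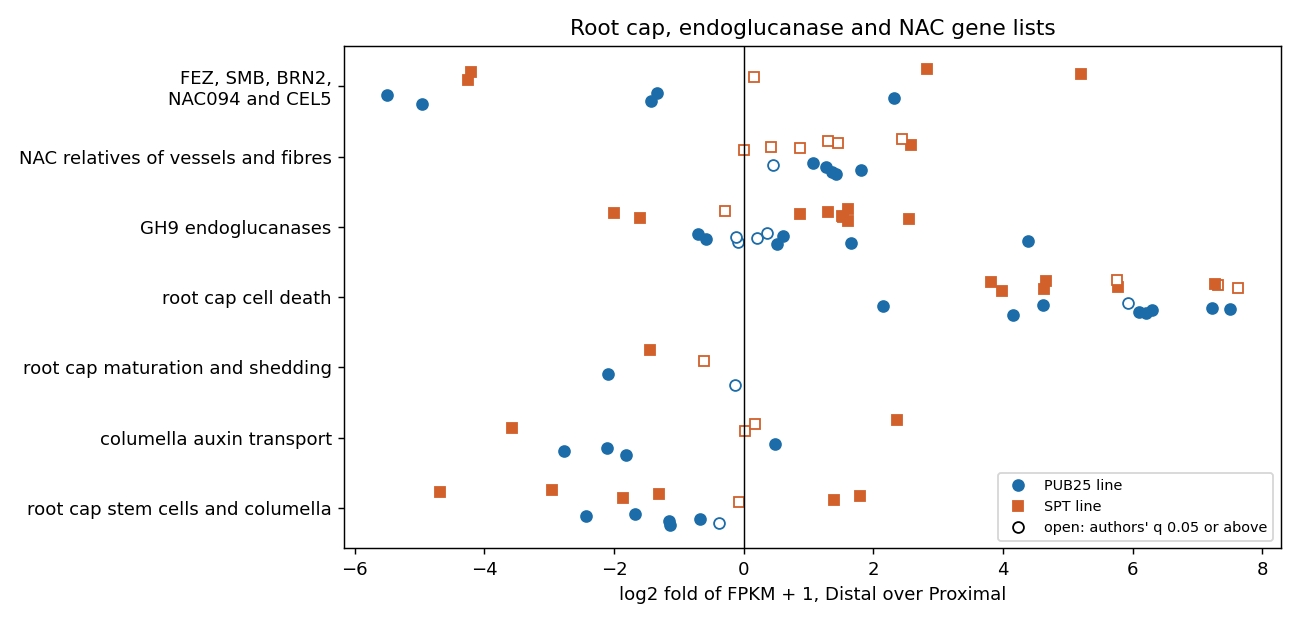
Log2 fold of FPKM + 1, Distal over Proximal, of each gene of the lists that passed the filter in the PUB25 (circles) and SPT (squares) lines, filled where q was under 0.05 by the authors' deposited table. Cell death genes lie to the right, with medians of 6.09 and 5.77, and genes of stem cells and columella lie mostly to the left, with medians of -1.14 and -1.31.

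Markers of other cell types moved with the zones too. In Proximal, Medial and Distal cells, xylem markers summed to 39.6, 38.3 and 154 FPKM in the PUB25 line and to 25.0, 770 and 427 FPKM in the SPT line. Ground tissue markers summed to 14.8, 25.7 and 26.4 FPKM and to 30.0, 137 and 251 FPKM. Epidermis markers summed to 134, 166 and 185 FPKM and to 127, 137 and 98.8 FPKM. None of these 15 genes was at 0 in a meristem zone. The sums cover genes that went both ways. In the SPT line 2 xylem markers rose and 2 fell from Proximal to Distal, where 24.7% of all genes rose and 23.1% fell. Ground tissue had 3 that rose and 2 that fell, and epidermis 1 and 3. In the PUB25 line 5 xylem, 2 ground tissue and 4 epidermis markers rose, and 0, 0 and 1 fell. Of all PUB25 genes 19.6% rose and 17.2% fell. The 4 phloem markers summed to 1.18, 1.16 and 2.14 FPKM in the PUB25 line, where APL was at 0 in Proximal and SEOR1 at 0 in Distal cells, and to 6.52, 52.9 and 73.6 FPKM in the SPT line. In Distal cells the sums of xylem, ground tissue and phloem markers were thus higher in the SPT line than in the PUB25 line. The epidermis sum was lower there. Of the members, CEL5, SMB and NAC094 were higher there and FEZ was lower, at 1.43 against 1.93 FPKM. BRN2 was close, at 233 against 229 FPKM by the locus these tables carry. The part of these cell types in the course of the 5 genes was not tested.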

How the data were processed

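RNA of sorted root protoplasts was sequenced in 24 libraries. Per the labels' protocols, extraction used a QIAGEN RNeasy micro kit and library preparation a NuGEN Ovation ultralow kit. The submitters' processing notes name Bowtie, TopHat, Cufflinks and Cuffdiff, and the build TAIR10, without versions or roles. The authors deposited FPKM, 1 value per gene, line and zone over its libraries, and tables with a log2 fold and a q value (adjusted p-value) between zones. How libraries were pooled is not given in the sources used here. Neither counts nor depth are in the files used, so no interval or floor is given, and whether libraries came from separate plantings is not stated.

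The planned limma test needed values per library and could not be run. From the FPKM, log2((FPKM + 1)/(FPKM + 1)) was computed for genes whose mean over a line's zones reached 1 FPKM, and the authors' q under 0.05 was taken as a call. The members, gene lists and tests were chosen with earlier results of these data known. Named genes are the members, up to 4 genes of a list and the 3 nearest genes of each member. Joined rows (1390) were not counted as list genes. Sequences and exons are from RefSeq (TAIR10.1). The code was checked on simulated data. Tools were numpy 2.4.6, pandas 2.3.3 and matplotlib 3.10.9. Alternatives were quantile normalization, median centring, a pseudocount of 0.1, and a minimum mean of 5 FPKM or no filter, with Pearson correlation for the nearest genes, and after the data were seen the other BRN2 locus and a background without joined or multiple-locus rows.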

Additional observations from a re-analysis of the deposited data

Results flagged for a closer look

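CEL5 and SMB went opposite ways in the PUB25 and SPT lines. From Medial to Distal cells the log2 fold of CEL5 was -2.18 in the PUB25 line and 1.19 in the SPT line. From Proximal to Distal cells it was -1.34 and 2.82. SMB had log2 folds of -0.88 and 0.65 from Medial to Distal cells. The authors' deposited table called each of these changes within its line, and the difference between the lines was not tested. The labels give no fluorescence range for a zone in either line.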

How the results depend on the processing

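Of 144 recomputed folds of the 5 genes, 129 kept their direction and their side of a 2-fold difference, 8 changed sign below 2-fold and 7 crossed 2-fold. With the other BRN2 locus the log2 fold was -0.095 from Medial to Distal in the PUB25 line and 0.63 and 0.29 from Medial and from Proximal to Distal in the TMO5 line. From Proximal to Distal, quantile normalization gave -0.25 for SMB in the SPT line, and in the TMO5 line quantile normalization and median centring gave -0.038 and -0.017 for SMB and -0.062 and -0.043 for NAC094. The 7 that crossed 2-fold were log2 folds of 0.97 for CEL5 from Medial to Distal in the SPT line under quantile normalization and, in the TMO5 line, of 1.16 for SMB and 1.40 and -1.15 for NAC094 with a pseudocount of 0.1, all from under 1 FPKM, and of -1.002, -1.02 and -1.03 for BRN2 from Proximal to Distal under that pseudocount, quantile normalization and median centring. Counts of genes with a 2-fold difference moved by over 1.5 times in these cases. With a minimum mean of 5 FPKM the PUB25 counts were 301 lower in Medial than Proximal (477 before), 289 higher in Distal than Medial (539) and 980 higher in Distal than Proximal (1571), the SPT count was 2400 lower in Distal than Proximal (3791), and the TMO5 counts were 52 and 203 for Medial over Proximal, 757 and 40 for Distal over Medial (higher, lower) and 621 higher for Distal over Proximal. With a pseudocount of 0.1 the lower counts of Distal over Medial were 782 in the PUB25 line and 2225 in the SPT line, and the TMO5 counts were 220 and 653 for Medial over Proximal, 124 lower for Distal over Medial and 305 lower for Distal over Proximal. Quantile normalization gave 146 and 275 for these last TMO5 counts. Ranking by Pearson correlation left 0 of the 3 nearest genes for FEZ and NAC094 and 1 of 3 for SMB, BRN2 and CEL5. A higher minimum tests fewer genes, and for the others the cause was not tested. No paired analysis was possible because each zone has 1 deposited value over its libraries, and leaving out replicates could not be run for the same reason.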
